A study of Mus musculus with 14 samples.

Results

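The comparison described here is between cultured lung fibroblasts from mice that lack the Rel gene and from wild-type mice, across all genes measured by RNA sequencing. Its members were chosen by sample title: 5 libraries titled as wild-type lung fibroblasts (numbers 1, 23, 3, 4 and 5) and 4 titled as knockout lung fibroblasts (numbers 7, 8, 9 and 10), of 14 libraries in the series. The genotype labels read Wild Type and Rel -/-, the strain of every library is given as C57BL/6J, and the allele that removes Rel is not described. The series asks, by its title, how c-Rel bears on matrix production by fibroblasts in systemic sclerosis. The series describes male mice aged 8 to 10 weeks. Lung pieces were laid in dishes of complete DMEM, cells grew out of them onto plastic, and after 14 days the dishes were scraped for RNA with no stimulus given to either genotype. The remaining 5 libraries, 2 Wild Type and 3 Rel -/-, are skin fibroblasts grown from dorsal skin explants to the same day, and they enter 1 comparison at the end. The outgrowth is what limits these cultures as a model of the fibroblast: nothing in the labels says that cells were sorted, and whatever else leaves the explant is scraped with them. Whether libraries of 1 group came from separate mice is not stated, so each p-value measures only the spread between these libraries. Rel-null library 10 carries a treatment label that says skin, while its title and source say lung, and it was kept with lung.

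Rel encodes c-Rel, a member of the NF-kappaB family of transcription factors. NF-kappaB dimers are held in the cytoplasm by inhibitors such as IkappaB-alpha (Nfkbia) and, on release, bind kappaB motifs near genes for cytokines, chemokines, adhesion molecules and their own inhibitors. c-Rel is best known from lymphocytes and myeloid cells. Lung fibroblasts make the collagens, glycoproteins and elastic fibres of the airway and alveolar wall, and on stiff plastic they can take on a contractile, matrix-producing state.

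The libraries held 15366332 to 30987933 counts, and 2 of them stood apart before any comparison of genotype. A gap is a gene at 0 counts in 1 library whose mean in the other lung libraries was at least 5 CPM (counts scaled to a common library total). Such gaps made up 11.46% of expressed genes in Rel-null 7 and 5.785% in wild-type 4, against at most 0.6047% in the other 7. The first principal component of log2 CPM carried 47.8% of the variance with Rel-null 7 at its far end, and the second carried 25.7% with wild-type 4 at its far end. Pearson correlations over genes ran from 0.70 to 0.951 (median 0.839) between libraries of the same genotype and from 0.647 to 0.939 (median 0.817) between genotypes. Wild-type 1 read Xist at 72.9 CPM with 0 counts of Ddx3y, the Y-linked helicase gene read in the other 8 libraries, although the series describes male mice. Counts and medians that lead a result are given below also without wild-type 4 and Rel-null 7, an alternative chosen after the data were seen.

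Rel itself (ENSMUSG00000020275, GRCm38 chromosome 11, 23736847-23770970) was read in every library, including all 4 that are labelled Rel-null. Values of single libraries are CPM on totals scaled by TMM, a trimmed-mean scaling factor, and are listed in the order wild-type 1, 23, 3, 4 and 5, then Rel-null 7, 8, 9 and 10. Rel stood at 7.08, 15.9, 13.2, 1.04 and 12.8 CPM in the wild-type and 0.0619, 4.15, 1.39 and 3.83 CPM in the Rel-null cultures. The counts behind these levels were 160, 326, 401, 25 and 261 in wild-type and 1, 95, 32 and 79 in Rel-null libraries. The exact 95% Poisson interval, which covers counting error only, was 0.672 to 1.53 CPM in wild-type 4 and 3.03 to 4.77 CPM in Rel-null 10. Wild-type 4 lay below Rel-null 8, 9 and 10, so the groups overlapped, and the other 4 wild-type libraries lay above every Rel-null library. The means were 9.99 ± 5.94 CPM (SD, n = 5) against 2.36 ± 1.96 CPM (SD, n = 4). A two-sided exact permutation test of this difference gave p = 0.0556, and 5 libraries against 4 cannot go below 0.00794. Leaving out wild-type 4, the 1 library by which the groups overlap, gave a difference of -9.87 CPM in place of -7.63 CPM, for which no test is given because the choice of library sets it. The counts are per gene, so they do not show which exons the reads in Rel-null libraries came from.

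**Figure D1:**
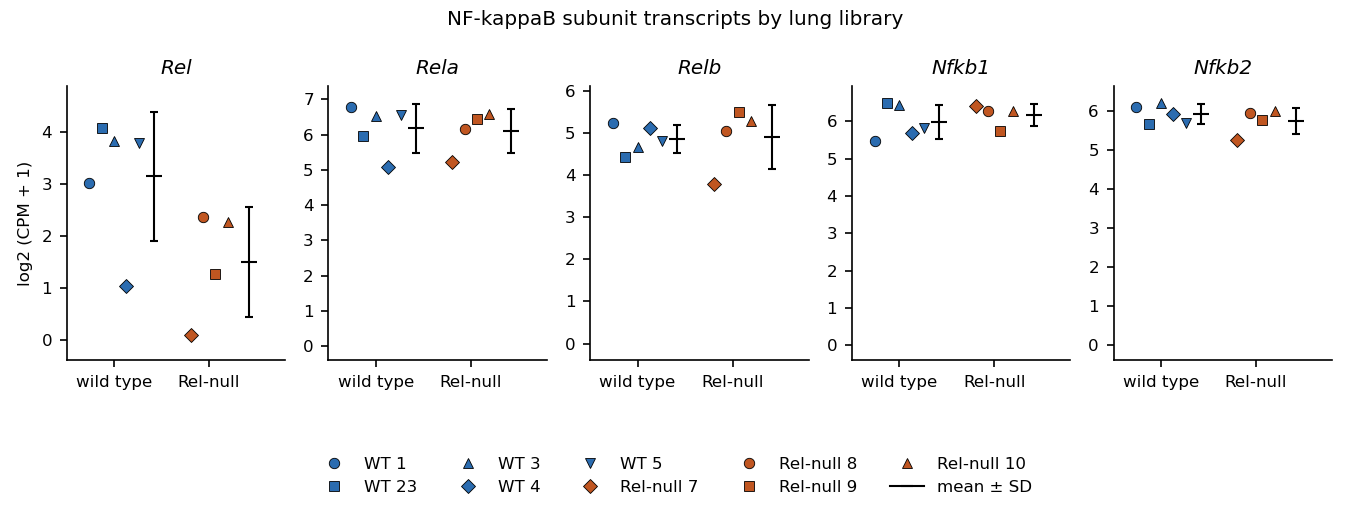
Levels of the NF-kappaB subunit transcripts as log2 (CPM + 1) in each of 5 wild-type and 4 Rel-null lung libraries, with the mean and SD of each group at the right of its points. Rel was 9.99 CPM on average in the wild-type and 2.36 CPM in the Rel-null libraries. All 5 subunits overlapped between genotypes, Rel through wild-type 4 at 1.04 CPM.

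The other NF-kappaB subunits overlapped between the genotypes as well. Each log2 fold change here and below is Rel-null minus wild type, from edgeR, and is followed by ± its SE. Rela, the subunit of the classical pathway, ran from 32.6 to 109 CPM in the wild-type and from 36.2 to 94.6 CPM in the Rel-null cultures (log2 fold change -0.11 ± 0.37). Relb, of the alternative pathway, had a log2 fold change of 0.16 ± 0.39. Nfkb1 and Nfkb2, which encode the precursors of the partner subunits, had 0.16 ± 0.28 and -0.17 ± 0.25. Genes beside Rel leaned to neither direction. Of 33 tested genes within 5 Mb of Rel on chromosome 11, 18 were higher and 15 lower in Rel-null cultures, the median log2 fold change was 0.12, and 0 were at an unadjusted edgeR p under 0.05. The groups did not overlap at 1 of the 33, which was lower, where 1.63% of all genes were lower without overlap.

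Marker genes of lung mesenchyme and of macrophages were read in all 9 libraries. Col1a1, Col3a1 and the other fibroblast markers summed from 27908 to 148329 CPM in the wild-type and from 24599 to 66872 CPM in the Rel-null cultures. Of the 15 fibroblast markers 11 were lower and 4 higher in Rel-null cultures (median log2 fold change -0.44), where 52.7% of all genes were lower. All 12 lung mesenchyme transcription factor genes were lower (median -0.31). In both lists 0 were at an unadjusted edgeR p under 0.05 and 0 were without overlap. Tbx4, a transcription factor of lung mesenchyme, stood at 105, 32.9, 58.1, 33.2 and 62.9 CPM in the wild-type and 9.53, 48.9, 36.2 and 113 CPM in the Rel-null cultures. Of 13 posterior and dermal position genes, only 2, Hoxc9 and Hoxc10, had 0 counts in all 9 libraries. The 13 summed from 39.2 to 133 CPM in the wild-type and from 51.1 to 306 CPM in the Rel-null cultures. Rel-null 8 at 306 CPM and Rel-null 10 at 264 CPM were the highest. Lyz2, the macrophage lysozyme gene, stood at 3757, 9023, 14801, 12919.7 and 10889 CPM in the wild-type and 5111, 16443, 13806 and 14480 CPM in the Rel-null cultures. The 26 macrophage and leukocyte markers summed from 7306 to 23943 CPM in the wild-type and from 9113 to 29752 CPM in the Rel-null cultures, and wild-type 1 and Rel-null 7 were the lowest of their groups. Cd3e, which defines T cells, was at 0 counts in every library, as was the keratinocyte keratin gene Krt5. Other members of both lists were read, and 9 of 16 lymphocyte and 9 of 18 keratinocyte markers were at 0 in all libraries. The lymphocyte markers summed from 1.85 to 7.26 CPM in the wild-type and from 5.40 to 15.2 CPM in the Rel-null cultures. For the keratinocyte markers the sums ran from 8.94 to 29.6 CPM in the wild-type and from 7.38 to 26.2 CPM in the Rel-null cultures. Epithelial markers summed from 32.3 to 218 CPM in the wild-type and from 43.0 to 79.4 CPM in the Rel-null cultures, led by surfactant gene Sftpc at 72.3 CPM in wild-type 23 and 130.5 CPM in wild-type 4, and the alveolar transcription factor gene Nkx2-1 was at most 1.17 CPM. In such mixed bulk samples, fewer cells of a type and less RNA per cell cannot be told apart.

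Across all genes, 2 of 13648 tested passed the threshold of an edgeR quasi-likelihood adjusted p under 0.05, which is 0.0147% of genes, 1 higher (0.00733%) and 1 lower (0.00733%). Both are close copies of abundant genes. Tpm3-rs7 (GRCm38 chromosome 14, 113314608-113316754), a related sequence of the tropomyosin gene Tpm3 that GENCODE lists as protein-coding and RefSeq as a pseudogene, fell in Rel-null cultures, from 37.7, 65.7, 71.6, 37.8 and 62.3 CPM to 0.743, 1.40, 2.00 and 1.94 CPM (log2 fold change -5.17 ± 0.46, edgeR adjusted p = 0.00173). Rps3a3, a processed pseudogene of the ribosomal protein gene Rps3a1, rose, from 0.266, 1.51, 1.97, 0.0415 and 0.783 CPM to 281, 106, 70.7 and 83.6 CPM (log2 fold change 7.19 ± 0.85, edgeR adjusted p = 0.0178). Neither gene overlapped between genotypes. Tpm3 itself ran from 196 to 248 CPM in the wild-type and from 295 to 518 CPM in the Rel-null cultures, higher without overlap. Rps3a1 ran from 378 to 741 CPM in the wild-type and from 288 to 712 CPM in the Rel-null cultures, with overlap. How reads were divided between such copies is not given in the sources used here, so both calls are uncertain as measures of one locus. Other processed pseudogenes were high in Rel-null 8, 9 and 10 and not in Rel-null 7. Gm8210, which the count filter kept out of the test of all 9 libraries, stood at 0.310, 12.8, 14.3 and 23.2 CPM in Rel-null cultures and at most 0.0415 CPM in the wild-type. Gm6768 stood at 0, 15.8, 18.9 and 20.0 CPM and Gm6969 at 0.124, 15.7, 16.7 and 20.7 CPM in Rel-null cultures, both under 1 CPM in every wild-type library.

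No other gene passed, and more genes short of the threshold were lower than higher in Rel-null cultures. At an unadjusted p under 0.05 there were 258 higher genes (1.89% of those tested) and 334 lower genes (2.45%), together 4.34%. All 4 Rel-null libraries lay above all 5 wild-type libraries at 141 genes (1.03%) and below them at 222 (1.63%). By the sign of the fold change alone, 47.3% of genes were higher and 52.7% lower, and the median log2 fold change was -0.04. Without wild-type 4 and Rel-null 7, 4 of 14146 genes passed (0.0283%), 3 higher (0.0212%) and 1 lower (0.00707%). In that comparison 2.59% of genes were higher and 3.33% lower at an unadjusted p under 0.05, together 5.92%, and the groups did not overlap at 4.71% of genes that were higher and 4.22% that were lower. The common dispersion, a measure of spread between libraries, was 0.304 in place of 0.685. DESeq2 on the same 9 libraries called 19 genes, 4 higher and 15 lower, among them these 15 genes described below, whose edgeR adjusted p was above 0.05: Gls2, Rnf207, Hebp1, Col11a1, Ltbp2, Ndufa4l2, Vldlr, Igfbp7, Lif, Col18a1, Col12a1, Tnc, Col5a2, Mmp3 and Cxcl14. Below, higher and lower describe values, and a gene is said to have risen or fallen only where it passed edgeR. Square brackets after the median of a gene list hold the lowest and the highest median found when each library was left out in turn, with the library left out. Genes outside the rule by which genes were named, chosen after their values were seen, are Adgre1, Ankrd1, Col4a2, Cxcl1, Ear2, Gls2, Gm6768, Gm6969, Gm8210, Il6, Lox, Mki67, Nfkb1, Nfkb2, Rela, Relb, Rnf207 and Rps3a3.

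**Figure D2:**
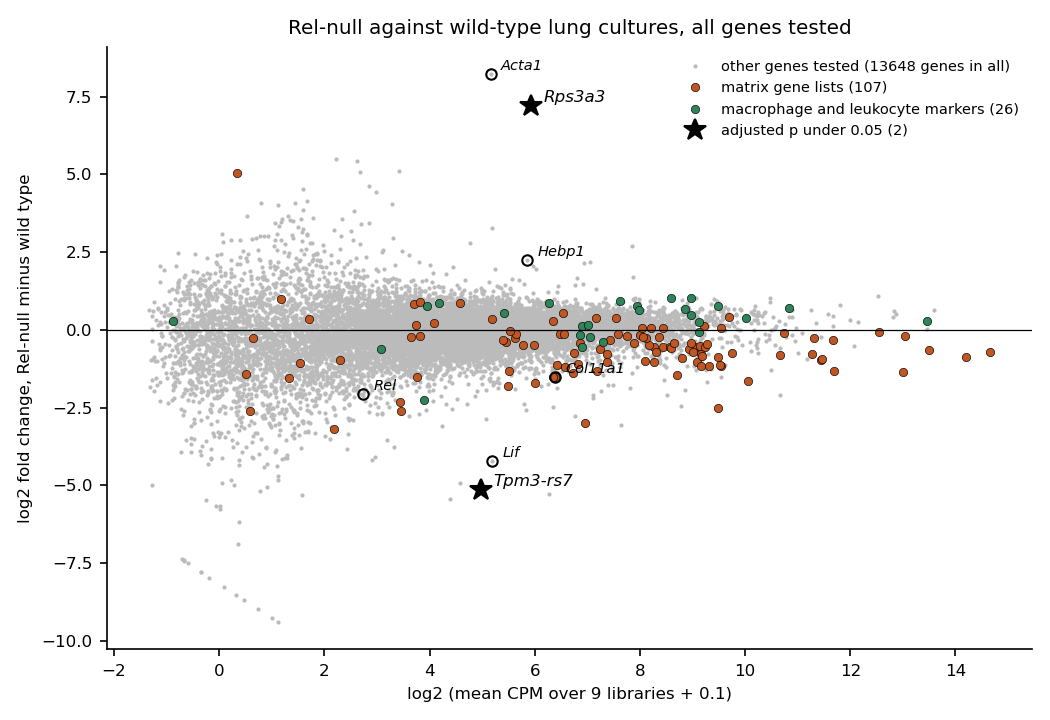
Log2 fold change (Rel-null minus wild type) of each of 13648 tested genes against its mean level over the 9 lung libraries as log2 (mean CPM + 0.1). Stars mark the 2 genes with an adjusted p under 0.05, orange points the members of 5 extracellular matrix lists, most of which lie below 0, and green points the macrophage and leukocyte markers, of which 19 of 26 lie above 0.

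After Tpm3-rs7, the smallest edgeR p of a protein-coding gene was that of Col11a1, which encodes a chain of fibrillar type XI collagen, a minor collagen that copolymerizes with and limits the width of larger fibrils. Col11a1 (GRCm38 chromosome 3, 114030540-114220718) stood at 122, 145, 118, 106 and 94.1 CPM in the wild-type and 52.9, 39.8, 33.2 and 37.1 CPM in the Rel-null cultures. The groups did not overlap, and each was tight, with 117 ± 19.0 CPM (SD, n = 5) against 40.8 ± 8.55 CPM (SD, n = 4). Its log2 fold change was -1.52 ± 0.23 with edgeR adjusted p = 0.135, short of the threshold, whereas DESeq2 gave an adjusted p of 9.56e-06 and limma-voom 0.0134. Leaving out each library in turn gave log2 fold changes from -1.67 to -1.42. Col5a2, a chain of the type V collagen that nucleates fibrils, stood at 5658, 4861, 4009.8, 4853 and 3242 CPM in the wild-type and 986, 2214, 1548 and 2418 CPM in the Rel-null cultures, again without overlap (log2 fold change -1.34 ± 0.35). The abundant collagens were more variable among wild-type cultures. Col1a1 stood at 60808, 5163, 16029.9, 5504 and 30280.5 CPM in the wild-type and 7652, 14162, 12501 and 17079.7 CPM in the Rel-null cultures, so wild-type 23 and 4 lay below every Rel-null library while wild-type 1 and 5 lay above every one of them. Col3a1 stood at 53632, 12046, 37505, 13427 and 39369 CPM in the wild-type and 5903, 21517, 13672 and 35184 CPM in the Rel-null cultures (log2 fold change -0.71 ± 0.66), with overlap. Of the 11 fibrillar collagen genes, 10 were tested, with 9 lower, 1 higher and a median of -1.11 [-1.38 without Rel-null 10 to -0.77 without wild-type 5], where 52.7% of all genes were lower. The groups did not overlap at 2 of them, Col11a1 and Col5a2, where 1.63% of all genes were lower without overlap. The mean log2 CPM over the list was 7.88, 7.61, 7.95, 6.50 and 7.79 in the wild-type and 4.51, 6.43, 5.09 and 7.74 in the Rel-null libraries, with Rel-null 10 inside the wild-type range.

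Collagens outside the fibrillar class were lower by count as well, among them chains of basement membranes and fibril surfaces. Of 32 such genes 18 were tested, with 15 lower and 3 higher (median -1.16 [-1.36 without Rel-null 10 to -0.75 without wild-type 1]), 7 lower at an unadjusted p under 0.05 and 5 lower without overlap, where the shares over all genes were 2.45% and 1.63%. In the other direction 1 was higher at that p and 1 higher without overlap, beside 1.89% and 1.03% of all genes. The summed level of the list was 5402, 6575, 4169, 5718 and 3862 CPM in the wild-type and 1682, 2555, 1631 and 3228 CPM in the Rel-null cultures, and the groups did not overlap. Col4a1, a chain of the type IV collagen network, stood at 1204, 902, 950.2, 1065 and 839.7 CPM in the wild-type and 486, 384, 218 and 678 CPM in the Rel-null cultures (log2 fold change -1.17 ± 0.32). Its partner chain gene Col4a2, which lies head to head with it, had a log2 fold change of -1.15 ± 0.34. Col18a1, the basement membrane collagen that releases endostatin, stood at 141, 100.1, 70.9, 88.0 and 62.6 CPM in the wild-type and 12.1, 19.6, 30.9 and 50.6 CPM in the Rel-null cultures (log2 fold change -1.71 ± 0.41), and Col16a1, a fibril-associated collagen, had -1.39 ± 0.39. None of these 4 overlapped between genotypes. Col12a1, another fibril-associated collagen, also did not overlap, at 520.1, 2418, 588, 1686 and 441 CPM in the wild-type and 113, 227, 97.8 and 352 CPM in the Rel-null cultures, but its size rested on wild-type 23 and 4. The remaining wild-type cultures ran from 441 to 588 CPM, close to Rel-null 10. Leaving out wild-type 4 and Rel-null 7 gave medians of -1.01 for fibrillar and -0.97 for other collagens.

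**Figure D3:**
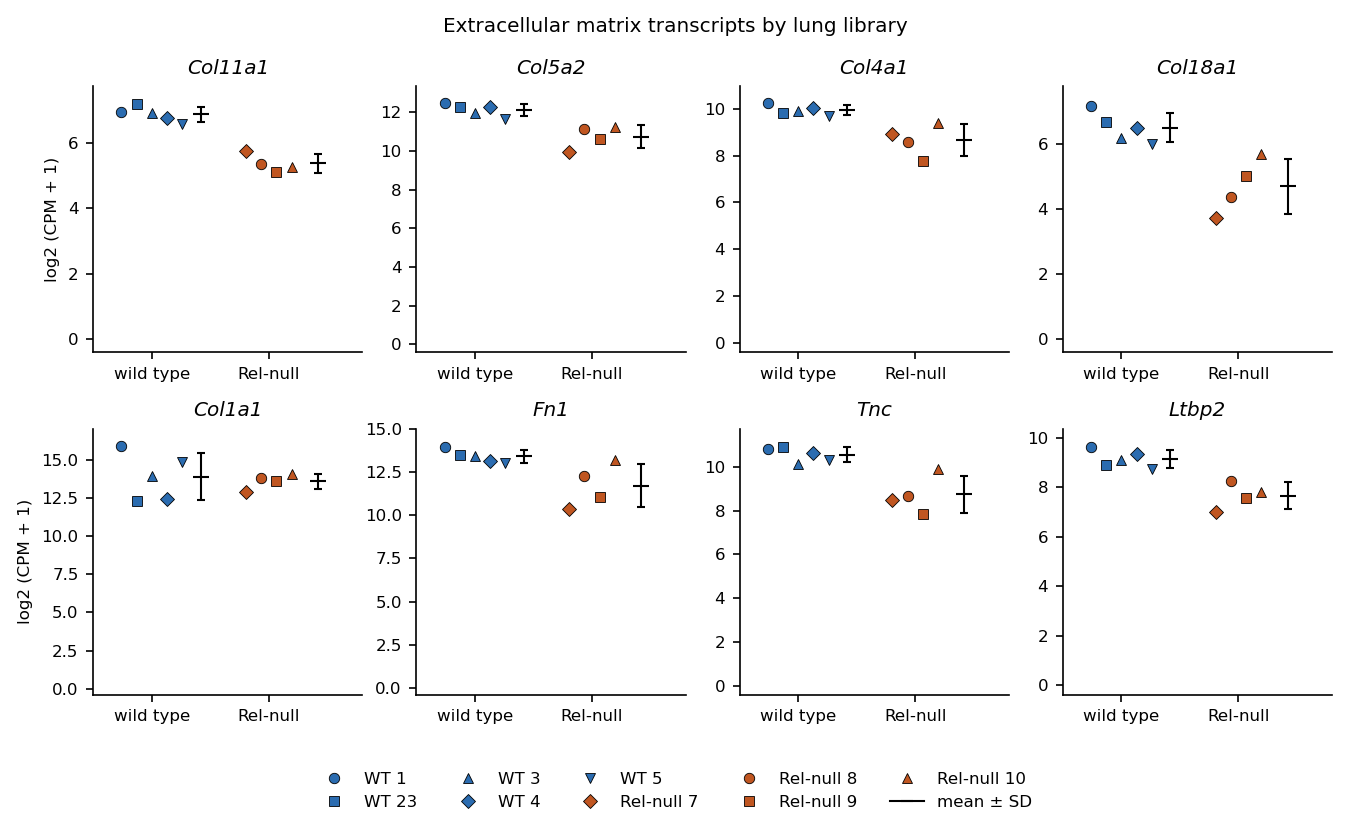
Levels of 8 extracellular matrix transcripts as log2 (CPM + 1) in each lung library, with the group mean and SD at the right of its points. Col11a1, Col5a2, Col4a1, Col18a1, Tnc and Ltbp2 show Rel-null libraries below all wild-type libraries, whereas Col1a1 and Fn1 overlap.

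Among glycoproteins, which link cells to collagen, 28 of 35 tested members were lower and 7 higher (median -0.50 [-0.60 without wild-type 3 to -0.34 without wild-type 1]), 7 of them lower at an unadjusted p under 0.05, where the share over all genes was 2.45%. Tnc, the matricellular glycoprotein tenascin C of injured and developing lung, stood at 1762, 1920.2, 1113, 1593 and 1256 CPM in the wild-type and 359, 408, 229.8 and 961 CPM in the Rel-null cultures (log2 fold change -1.64 ± 0.41), and Rel-null 10 was the closest to wild type. Fn1, fibronectin, stood at 16106, 11395, 11059, 9177 and 8257 CPM in the wild-type and 1310.4, 5039, 2087 and 9244 CPM in the Rel-null cultures, with Rel-null 10 inside the wild-type range and a log2 fold change of -1.34 ± 0.56. Basement membrane linkers behaved alike, with log2 fold changes of -1.05 ± 0.35 for Nid1 and -1.12 ± 0.38 for Nid2, the nidogens, and -1.03 ± 0.37 for the laminin chain gene Lama4. All 3 overlapped between genotypes. The elastic fibre genes had a median close to that of the glycoproteins. Ltbp2, which encodes a protein of the elastic fibre microfibril, stood at 804, 473, 552, 659 and 427 CPM in the wild-type and 127, 309, 190.0 and 225 CPM in the Rel-null cultures, without overlap (log2 fold change -1.45 ± 0.30). In the elastic fibre list 12 of 15 tested members were lower and 3 higher (median -0.55 [-0.80 without Rel-null 10 to -0.17 without wild-type 1]); Fbln2, fibulin 2, did not overlap, with -0.96 ± 0.38, and Fbn1, fibrillin 1, overlapped with -0.82 ± 0.41. Among proteoglycans 12 of 18 tested members were lower and 6 higher (median -0.14 [-0.39 without Rel-null 10 to 0.074 without Rel-null 7]), with Prelp, a small leucine-rich proteoglycan, without overlap at -0.66 ± 0.24 and Bgn, biglycan, overlapping at -0.53 ± 0.35.

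The enzymes that modify and cross-link collagen leaned the same way by count. 24 of 29 tested members were lower (median -0.34 [-0.52 without Rel-null 10 to -0.18 without wild-type 1]), 9 at an unadjusted p under 0.05 and 5 without overlap, beside 2.45% and 1.63% of all genes. Lox, lysyl oxidase, which starts the cross-links, stood at 2628, 4749, 2259.6, 3083 and 2544 CPM in the wild-type and 2032, 2047, 1589 and 1386 CPM in the Rel-null cultures, without overlap. Loxl2, its relative, had a log2 fold change of -0.90 ± 0.28, Bmp1, the protease that trims procollagen, -1.02 ± 0.34, and the prolyl hydroxylase gene P4ha2 -0.77 ± 0.27. Among matrix proteases and their inhibitors 28 of 37 tested members were lower and 9 higher (median -0.42 [-0.60 without Rel-null 10 to -0.39 without Rel-null 7]). Mmp3, stromelysin 1, stood at 1055, 4190.1, 1290.0, 4668 and 1045 CPM in the wild-type and 383, 792, 475 and 660.0 CPM in the Rel-null cultures. Mmp10, stromelysin 2, stood at 6.73, 85.3, 3.88, 88.6 and 0.686 CPM in the wild-type and 0.495, 2.84, 0 and 0 CPM in the Rel-null cultures. Both were highest in wild-type 23 and 4, and Mmp3 did not overlap, while Mmp10 in wild-type 5 lay below Rel-null 8. Ctsb, the lysosomal protease cathepsin B, was higher at 0.59 ± 0.42 with overlap.

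The matrix values were recomputed with a term for macrophage markers and with a correction for the length of transcripts. With the macrophage and leukocyte marker score as a covariate, which moved the all-gene median to -0.19, the medians were -1.39 for fibrillar collagens, -1.17 for other collagens and -0.51 for glycoproteins, and Col11a1 had -1.51. Transcripts differed by exon length: the median log2 fold change ran from 0.13 in the fifth of genes with the shortest exons to -0.21 in the fifth with the longest. After a per-library correction for exon length, which moved the all-gene median to 0.25, Col11a1 had -0.94, fibrillar collagens -0.81, other collagens -0.89, glycoproteins -0.20 and the cross-linking list -0.05.

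The direction of the contractile genes, which mark the myofibroblast, rested on a single library. Acta2, smooth muscle alpha actin, stood at 2101, 355, 819, 364 and 1284 CPM in the wild-type and 5986, 436, 768 and 754 CPM in the Rel-null cultures. Actg2, smooth muscle gamma actin, stood at 105, 14.4, 51.6, 12.5 and 152 CPM in the wild-type and 1557, 29.4, 74.1 and 86.4 CPM in the Rel-null cultures. Rel-null 7 was above every other culture for both. Without it the log2 fold change of Acta2 was -0.60 in place of 1.01, and that of Actg2 -0.09 in place of 2.70. The library stood out for Acta1 too, the skeletal muscle actin gene, which was at 316 CPM there and at no more than 1.92 CPM elsewhere. The 20 skeletal and cardiac muscle genes, Acta1 among them, summed to 353 CPM in Rel-null 7 and to at most 12.2 CPM in any other library. Of these genes, Ckm and Myog were at 0 counts in Rel-null 7. With all 9 libraries 16 of 24 contractile genes were higher and 8 lower (median 0.16 [-0.49 without Rel-null 7 to 0.39 without wild-type 1]). The direction turned without wild-type 4 and Rel-null 7, with 0 higher and 24 lower (median -0.52). Smtn, smoothelin, was lower without overlap in all 9, at 78.3, 46.8, 44.1, 50.6 and 33.8 CPM in the wild-type and 7.62, 12.7, 12.2 and 32.5 CPM in the Rel-null cultures (log2 fold change -1.64 ± 0.45), and Myh9, a non-muscle myosin heavy chain gene, had -1.12 ± 0.38 with overlap. Genes that respond to YAP and mechanical load had the same library at the top. In their list 14 of 24 tested members were lower and 10 higher (median -0.08 [-0.42 without Rel-null 7 to 0.0390 without Rel-null 8]). Without wild-type 4 and Rel-null 7, 23 were lower and 1 higher (median -0.45). In that comparison 8 were lower at an unadjusted edgeR p under 0.05 and 5 lower without overlap, beside 3.33% and 4.22% of all genes. Ankrd1, a cardiac ankyrin repeat gene and common YAP target, stood at 25.5, 106, 24.1, 165 and 19.8 CPM in the wild-type and 331, 10.8, 20.9 and 8.97 CPM in the Rel-null cultures. Ccn2, connective tissue growth factor, stood at 666, 1021, 298, 1306 and 282 CPM in the wild-type and 2976, 378, 359 and 121 CPM in the Rel-null cultures. Wild-type 23 and 4 were next in order for both, and without Rel-null 7 their log2 fold changes were -2.33 and -1.32. Akap12, a scaffold protein gene, was lower without overlap at 99.0, 162, 47.5, 139 and 57.7 CPM in the wild-type and 39.3, 16.6, 17.9 and 42.1 CPM in the Rel-null cultures. Mrtfa, the actin-sensing transcriptional coactivator, also did not overlap, with -0.86 ± 0.26. The TGF-beta list was even, with 13 higher and 15 lower of 28 (median -0.02 [-0.11 without wild-type 4 to 0.19 without wild-type 1]). Its 2 members at an unadjusted p under 0.05, both lower, where 2.45% of all genes were, were the TGF-beta family antagonist Fst at -1.04 ± 0.37 and the latent TGF-beta docking receptor Lrrc32 at -0.84 ± 0.32.

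For the inflammatory genes, whose regulation by NF-kappaB runs through short promoter motifs, the 250 bases before the start of each gene were read from RefSeq (GRCm38.p6) and searched on both strands for the kappaB letters GGG, any pair of bases (NN), then TTTCC, and the AP-1 letters TGANTCA, which cannot share bases with each other. The kappaB letters were present in 1.40% of 27025 promoters of that length and the AP-1 letters in 6.87%. Of 99 genes in the NF-kappaB, chemokine, interleukin 6 and interleukin 1 lists, 77 had an entry, and 13 of these held the kappaB letters: Ccl20, Ccl9, Csf1, Cxcl1, Cxcl2, Cxcl3, Cyld, Il6, Nfkb2, Nfkbia, Rel, Tnfaip3 and Traf3. The AP-1 letters were held by 11 of the 77. Of the 24 genes named for the smallest p, 18 had an entry, of which 0 held the kappaB letters and 1, Lif, held the AP-1 letters. The windows below are the target gene itself, the inhibitor Nfkbia, and the cytokine genes Cxcl2 and Il6, with kappaB matches in capitals, and Lif, with its AP-1 match in capitals, because its edgeR p was the smallest among the cytokine genes. They lie at chr11:23770970-23771219 (minus strand) for Rel, chr12:55492648-55492897 (minus strand) for Nfkbia, chr5:90903649-90903898 (plus strand) for Cxcl2, chr5:30012864-30013113 (plus strand) for Il6 and chr11:4257318-4257567 (plus strand) for Lif. Cxcl2 holds 2 matches of the capitalized motif and the others 1 each. A match describes letters and does not show binding.
Rel: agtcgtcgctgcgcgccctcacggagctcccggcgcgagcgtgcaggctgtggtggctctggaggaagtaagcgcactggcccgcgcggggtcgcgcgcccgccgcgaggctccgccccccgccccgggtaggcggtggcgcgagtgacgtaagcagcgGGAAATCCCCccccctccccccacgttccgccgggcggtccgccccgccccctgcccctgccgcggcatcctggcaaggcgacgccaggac
Nfkbia: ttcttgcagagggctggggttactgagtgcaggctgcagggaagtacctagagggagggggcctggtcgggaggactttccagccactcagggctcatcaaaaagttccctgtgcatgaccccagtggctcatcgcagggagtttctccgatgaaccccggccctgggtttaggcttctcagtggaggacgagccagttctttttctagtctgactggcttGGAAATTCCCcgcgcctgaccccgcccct
Cxcl2: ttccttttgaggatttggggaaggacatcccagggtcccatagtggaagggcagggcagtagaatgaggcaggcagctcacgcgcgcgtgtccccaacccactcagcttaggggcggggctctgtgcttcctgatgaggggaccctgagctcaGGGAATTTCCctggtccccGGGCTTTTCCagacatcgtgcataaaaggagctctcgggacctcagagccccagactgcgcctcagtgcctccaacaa
Il6: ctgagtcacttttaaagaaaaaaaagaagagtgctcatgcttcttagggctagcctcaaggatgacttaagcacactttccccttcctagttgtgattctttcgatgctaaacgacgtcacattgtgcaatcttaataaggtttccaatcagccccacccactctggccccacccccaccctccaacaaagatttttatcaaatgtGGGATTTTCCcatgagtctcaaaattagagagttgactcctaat
Lif: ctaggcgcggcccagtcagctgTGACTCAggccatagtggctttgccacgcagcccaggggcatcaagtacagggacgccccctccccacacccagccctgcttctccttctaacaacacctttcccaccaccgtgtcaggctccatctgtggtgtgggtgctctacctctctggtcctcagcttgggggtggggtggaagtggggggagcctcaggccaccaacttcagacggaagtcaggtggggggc

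Several cytokine, chemokine and immediate early genes were high in 3 of the 5 wild-type cultures, and near the Rel-null level in the other 2. Lif, leukemia inhibitory factor of the interleukin 6 family, stood at 92.7, 97.8, 4.73, 113 and 6.71 CPM in the wild-type and 0.681, 4.54, 3.57 and 4.66 CPM in the Rel-null cultures. Wild-type 1, 23 and 4 were at least 92.7 CPM, while wild-type 3 and 5 lay just above the Rel-null range, so the groups did not overlap (log2 fold change -4.22 ± 1.01, edgeR adjusted p = 0.994). Cxcl2, a neutrophil-attracting chemokine with 2 kappaB matches, showed the same 3 libraries at 28.4, 28.4, 1.51, 23.1 and 2.55 CPM in the wild-type and 0, 0.48, 1.13 and 3.30 CPM in the Rel-null cultures, with overlap. Cxcl1, its neighbour and relative, stood at 172, 48.6, 6.05, 39.2 and 6.56 CPM in the wild-type and 0, 12.8, 12.6 and 4.41 CPM in the Rel-null cultures, with overlap. Nfkbiz, an atypical nuclear inhibitor that is itself a target of NF-kappaB, stood at 357, 119, 51.7, 80.7 and 29.5 CPM in the wild-type and 0, 31.2, 22.7 and 36.5 CPM in the Rel-null cultures (log2 fold change -2.50 ± 1.09), and wild-type 1 was the highest. Fosb, an immediate early AP-1 gene, stood at 625, 30.4, 0.953, 25.3 and 2.25 CPM in the wild-type and 0.0619, 5.37, 1.83 and 6.64 CPM in the Rel-null cultures, highest in the same 3 wild-type libraries. In the immediate early list 18 of 26 tested members were lower and 8 higher (median -0.67 [-0.87 without wild-type 23 to -0.20 without wild-type 1]), and limma-voom gave a median of 0.0717. Ier3, an NF-kappaB-inducible survival gene, had -1.32 ± 0.46.

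**Figure D4:**
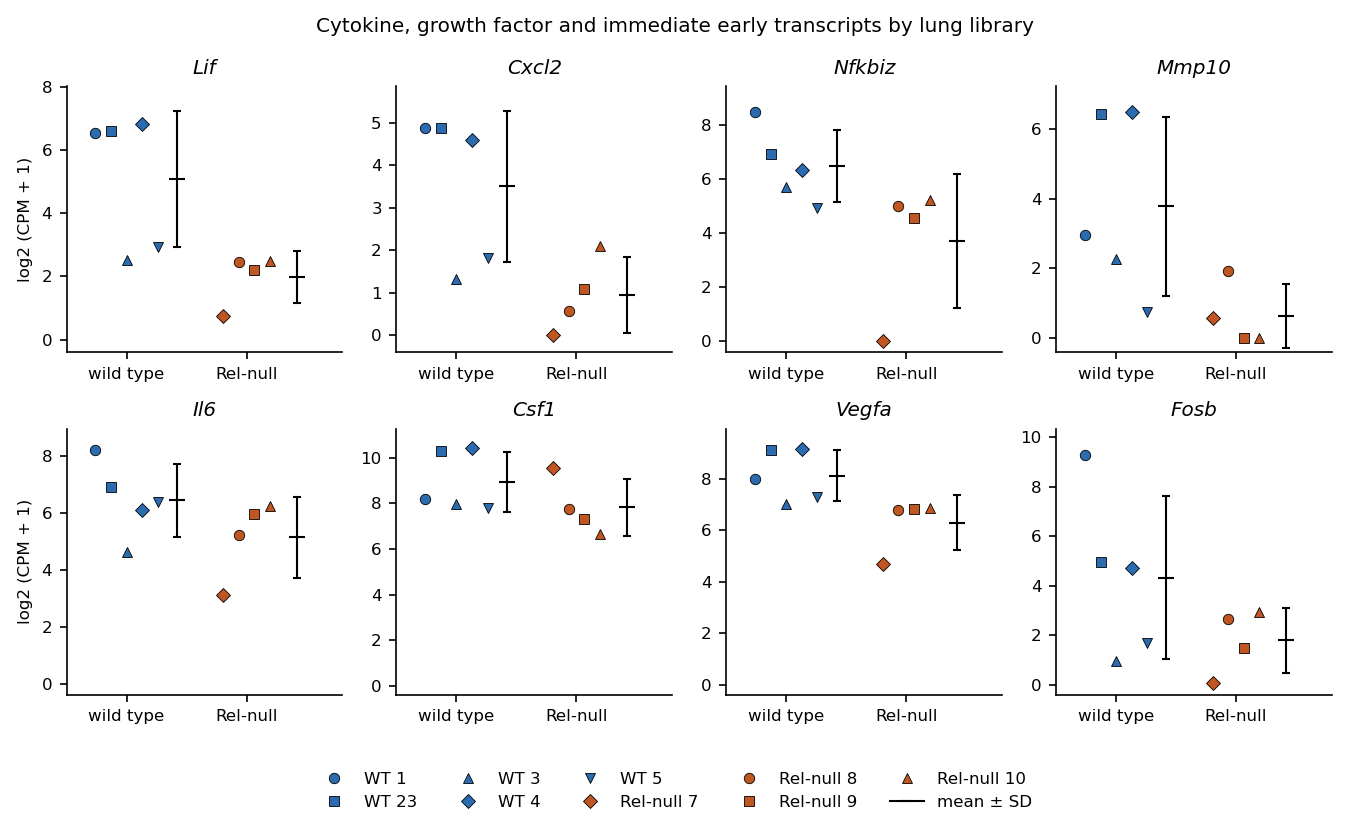
Levels of 8 cytokine, growth factor and immediate early transcripts as log2 (CPM + 1) in each lung library, with the group mean and SD at the right of its points. Lif, Cxcl2 and Fosb are high in wild-type 1, 23 and 4 and near the Rel-null level in wild-type 3 and 5, Mmp10 and Csf1 are high in wild-type 23 and 4, and Vegfa is lowest in Rel-null 7.

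In the chemokine list 20 of 23 tested members were lower and 3 higher (median -0.74 [-1.04 without Rel-null 9 to -0.46 without Rel-null 7]), 6 lower at an unadjusted p under 0.05 and 0 without overlap, where 2.45% of all genes were lower at that p. Cxcl14, a constitutive fibroblast chemokine, stood at 785, 587, 413, 830.3 and 168 CPM in the wild-type and 37.2, 183, 100.5 and 197 CPM in the Rel-null cultures (log2 fold change -2.10 ± 0.54), with wild-type 5 inside the Rel-null range. Cxcl5 had -1.25 ± 0.45, the interferon-inducible Cxcl10 -3.84 ± 1.45 and Cxcl12, a stromal homing factor, -0.74 ± 0.33. All 3 overlapped. Without wild-type 4 and Rel-null 7 the chemokine median was -0.49, with 15 lower and 8 higher, and with the macrophage marker score as a covariate it was -1.49. In the interleukin 6 list 13 of 14 tested members were lower and 1 higher (median -0.58 [-0.98 without Rel-null 10 to -0.32 without wild-type 1]). Il6 itself, with its kappaB match, stood at 296, 119, 23.9, 68.6 and 82.7 CPM in the wild-type and 7.74, 36.4, 62.2 and 76.0 CPM in the Rel-null cultures and overlapped (log2 fold change -1.37 ± 0.71), and the oncostatin M receptor gene Osmr had -0.65 ± 0.32. The interleukin 1, TNF and colony-stimulating factor list was mixed, with 13 lower and 9 higher of 22 (median -0.15 [-0.47 without Rel-null 10 to 0.13 without Rel-null 7]). Csf1, the macrophage growth factor, stood at 289.7, 1281, 249.9, 1396 and 221 CPM in the wild-type and 763, 214, 161 and 99.3 CPM in the Rel-null cultures, high in wild-type 23 and 4 and in Rel-null 7. Its receptor gene Csf1r, a macrophage gene, stood at 114, 302, 578, 282 and 446 CPM in the wild-type and 258, 1182, 571 and 798 CPM in the Rel-null cultures (log2 fold change 1.03 ± 0.48). In the NF-kappaB list itself 23 of 30 tested members were lower and 7 higher (median -0.17 [-0.30 without Rel-null 10 to -0.00863 without Rel-null 7]). The lean was absent without wild-type 4 and Rel-null 7, with 14 lower, 16 higher and a median of 0.04. Nfkbia stood at 239.5, 71.5, 82.6, 138 and 48.8 CPM in the wild-type and 70.1, 72.3, 108 and 53.2 CPM in the Rel-null cultures, highest in wild-type 1 and 4.

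Other immune and adhesion lists gave smaller or mixed counts. Vcam1, an adhesion molecule for leukocytes, was lower without overlap at 834, 606, 595, 457 and 485 CPM in the wild-type and 322, 422, 454 and 343 CPM in the Rel-null cultures (log2 fold change -0.63 ± 0.25). Ptges, which makes prostaglandin E, had -0.98 ± 0.35 with overlap, while Hpgd, which breaks prostaglandins down, was higher without overlap at 1.42, 2.38, 3.09, 0 and 1.91 CPM in the wild-type and 18.5, 11.7, 14.0 and 3.30 CPM in the Rel-null cultures. Among interferon-stimulated genes 33 of 37 tested members were lower and 4 higher (median -0.79 [-1.02 without Rel-null 9 to -0.40 without wild-type 23]), but 0 were lower at an unadjusted edgeR p under 0.05 and 0 were without overlap. Their median was -0.42 without wild-type 4 and Rel-null 7. In the MHC class II list 7 of 9 were higher (median 0.66 [0.23 without Rel-null 8 to 0.90 without Rel-null 9], 0.36 without wild-type 4 and Rel-null 7 and 0.0835 with no filter on low counts), among them the invariant chain gene Cd74, at 5.62, 7.59, 5.55, 11.3 and 2.25 CPM in the wild-type and 15.7, 66.0, 0.871 and 28.3 CPM in the Rel-null cultures, where Rel-null 9 lay below every wild-type culture. MHC class I genes were even, with 10 higher and 8 lower (median 0.09 [-0.0458 without Rel-null 9 to 0.19 without Rel-null 7]), and Psmb8, an immunoproteasome subunit gene, had 0.81 ± 0.30. Among complement genes 11 of 18 tested members were lower and 7 higher (median -0.38 [-0.69 without Rel-null 10 to -0.0565 without Rel-null 9], and -0.96 with the macrophage score as a covariate). C4b and C1s1, which fibroblasts secrete, had -1.26 ± 0.52 and -1.07 ± 0.44, and C5ar1, a receptor of myeloid cells, 0.99 ± 0.45.

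Growth factor and hypoxia genes were lower by count in Rel-null cultures, and 3 that low oxygen induces were highest in the same wild-type pair. Vegfa, the endothelial growth factor gene induced by low oxygen, stood at 252, 553, 131, 575 and 156 CPM in the wild-type and 24.8, 109.8, 113 and 117 CPM in the Rel-null cultures, without overlap (log2 fold change -1.87 ± 0.56). Ero1l, an oxidase of protein folding that hypoxia induces, stood at 103, 479.5, 137, 253 and 127 CPM in the wild-type and 54.3, 92.5, 87.1 and 90.2 CPM in the Rel-null cultures, without overlap. Adm, adrenomedullin, a vasodilator peptide gene, stood at 337, 885, 285, 846 and 154 CPM in the wild-type and 109, 225, 193 and 122 CPM in the Rel-null cultures, with wild-type 5 inside the Rel-null range. Wild-type 23 and 4 were the highest for all 3. Ndufa4l2, a hypoxia-induced mitochondrial protein gene, was lower without that pair leading, at 147, 76.5, 97.1, 113 and 122 CPM in the wild-type and 32.2, 34.8, 61.0 and 49.7 CPM in the Rel-null cultures (log2 fold change -1.32 ± 0.28). In the glycolysis and hypoxia list 26 of 31 tested members were lower and 5 higher (median -0.26 [-0.36 without Rel-null 10 to -0.17 without Rel-null 7]), and 3 were lower without overlap, as were 1.63% of all genes. Among growth factors and their receptors 27 of 38 tested members were lower and 11 higher (median -0.34 [-0.63 without Rel-null 10 to -0.31 without Rel-null 9]), 5 without overlap, set against the same 1.63%. Without wild-type 4 and Rel-null 7, the glycolysis and hypoxia list had 21 lower and 10 higher (median -0.10). In that comparison the growth factor list had 28 lower and 10 higher (median -0.47). Igfbp7, a secreted binder of insulin-like growth factors, stood at 836, 671, 644, 974 and 580.4 CPM in the wild-type and 305, 346, 396 and 417 CPM in the Rel-null cultures, without overlap (log2 fold change -1.02 ± 0.24). Fgf7, a fibroblast growth factor for epithelium, had -1.20 ± 0.38 with overlap, and Vegfc, for lymphatic endothelium, -1.22 ± 0.40 without. Vldlr, a lipoprotein receptor gene, stood at 80.5, 131, 64.5, 94.1 and 66.6 CPM in the wild-type and 36.0, 36.5, 30.8 and 41.7 CPM in the Rel-null cultures (log2 fold change -1.27 ± 0.27), and Uaca, which encodes a coiled-coil protein, had -1.55 ± 0.37; neither overlapped.

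With all 9 libraries, lists of protein folding, cell division, cholesterol synthesis, Wnt signalling and integrins had at most 2 members each at an unadjusted edgeR p under 0.05. Of all genes, 4.34% were at that p. In the unfolded protein response list 16 of 24 tested members were lower and 8 higher (median -0.35 [-0.40 without wild-type 5 to -0.25 without wild-type 23]), and its 3 members without overlap, beside 1.63% of all genes, were the chaperone genes Hsp90b1 at -0.70 ± 0.23, Hyou1 at -0.62 ± 0.22 and Hspa5 at -0.38 ± 0.22. In the proliferation list 28 of 40 tested members were lower and 12 higher (median -0.19 [-0.56 without Rel-null 9 to 0.0983 without Rel-null 8]), with none at an unadjusted p under 0.05. Without wild-type 4 and Rel-null 7, 34 were lower and 6 higher (median -0.38). Of the 34, 5 were lower at that p and 6 without overlap, beside 3.33% and 4.22% of all genes in that comparison. With all 9 libraries limma-voom gave a median of -0.89. Mki67, the proliferation marker, ran from 3.14 to 80.3 CPM in the wild-type and from 3.28 to 13.6 CPM in the Rel-null cultures. The p53 list had a median of 0.17 [-0.0167 without Rel-null 7 to 0.30 without Rel-null 10] and the mitochondrially encoded genes 0.21 [0.0871 without Rel-null 9 to 0.39 without wild-type 1]. Cholesterol synthesis genes had 16 higher and 8 lower (median 0.22 [0.0853 without wild-type 4 to 0.37 without wild-type 1]), with Insig1, the sterol sensor partner, higher without overlap at 67.5, 54.4, 67.4, 6.27 and 76.0 CPM in the wild-type and 198, 92.6, 96.1 and 114 CPM in the Rel-null cultures. The Wnt list had a median of -0.05 [-0.36 without Rel-null 10 to 0.21 without wild-type 1], in which the secreted modulators Dkk3 and Rspo3 had -0.85 ± 0.32 and -0.88 ± 0.38. The integrin list had -0.10 [-0.29 without Rel-null 7 to 0.0177 without Rel-null 9], with the adhesion adaptor gene Tln1 at -0.97 ± 0.34. Without wild-type 4 and Rel-null 7, 21 of its 28 tested members were lower and 7 higher (median -0.37). In that comparison 4 were lower at an unadjusted edgeR p under 0.05 and 7 lower without overlap, beside 3.33% and 4.22% of all genes.

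The protein-coding genes that were higher in Rel-null cultures had varied functions. Hebp1, a heme-binding protein gene whose cleaved peptide attracts phagocytes, stood at 22.5, 13.2, 37.1, 5.40 and 30.5 CPM in the wild-type and 133, 83.2, 103 and 91.0 CPM in the Rel-null cultures, without overlap, the smallest edgeR p among higher protein-coding genes (log2 fold change 2.23 ± 0.46, edgeR adjusted p = 0.968; DESeq2 adjusted p = 0.0048). Other genes, too, were higher in all 4 Rel-null libraries than in any wild-type library. Kcnk13, a potassium channel gene, stood at 6.86, 16.9, 33.8, 13.3 and 24.2 CPM in the wild-type and 54.7, 55.2, 75.2 and 34.6 CPM in the Rel-null cultures. Atp6v0d1, a subunit of the proton pump that acidifies lysosomes, stood at 125.97, 96.5, 136, 86.5 and 153 CPM in the wild-type and 329, 162, 221 and 166 CPM in the Rel-null cultures. None of the Rel-null values of either gene lay inside the wild-type range. Cat, catalase, which breaks down hydrogen peroxide, stood at 79.5, 261, 192, 150.2 and 192 CPM in the wild-type and 323, 464, 337 and 273 CPM in the Rel-null cultures. Adipor1, an adiponectin receptor gene, stood at 138, 175, 196, 115 and 211 CPM in the wild-type and 438, 297, 295 and 252 CPM in the Rel-null cultures. Neither overlapped, and Rel-null 10 was the lowest Rel-null library for both. Cmtm6, a membrane protein gene that stabilizes PD-L1, had 0.89 ± 0.26 with overlap. The Mediator subunit gene Med22 had 0.93 ± 0.27 and Sephs2, of selenoprotein synthesis, 0.81 ± 0.25, both without overlap.

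The macrophage and leukocyte markers themselves had 19 of 26 higher (median 0.42), 2 at an unadjusted p under 0.05, beside 1.89% of all genes, and 0 higher without overlap. The 1 marker that was lower without overlap was Ear2, an eosinophil-type ribonuclease gene, at 18.7, 46.3, 11.6, 26.8 and 10.6 CPM in the wild-type and 0, 8.25, 3.09 and 7.66 CPM in the Rel-null cultures. Fcer1g and Tyrobp, signalling adaptors of myeloid receptors, were those with the smallest p. Fcer1g stood at 59.2, 119.9, 226, 139.6 and 161 CPM in the wild-type and 215, 270.0, 351 and 229 CPM in the Rel-null cultures. Tyrobp stood at 107, 147, 260.3, 213 and 209 CPM in the wild-type and 168, 377, 415 and 322 CPM in the Rel-null cultures. In both, Rel-null 8, 9 and 10 lay above every wild-type culture and Rel-null 7 did not. Adgre1, the F4/80 antigen gene, stood at 50.2, 258, 389, 242 and 382 CPM in the wild-type and 205, 878, 565 and 497 CPM in the Rel-null cultures, again with Rel-null 7 below 4 of the 5 wild-type cultures. Mpeg1, a pore-forming protein gene of macrophages, stood at 560.3, 1410.0, 1836, 1205 and 2097 CPM in the wild-type and 973, 3414, 2274 and 2682 CPM in the Rel-null cultures, with Rel-null 8, 9 and 10 likewise above every wild-type culture. Without wild-type 4 and Rel-null 7, 22 of 26 markers were higher (median 0.68) and 10 were higher without overlap, against 4.71% of all genes in that comparison. Csf1r and C5ar1 above are also genes of myeloid cells, and Hebp1 had a log2 fold change of 2.23 with the marker score as a covariate. The share of macrophages in each dish was not measured, and its part in the level of Hebp1 or of the other higher genes was not tested.

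Some genes varied widely within each genotype. The 10 protein-coding genes with the largest pooled SD within groups, among those with a mean of at least 10 CPM, were Angptl7, Gata5, Coasy, Alpl, Chrdl2, Gpm6a, Slc35c1, Zfyve26, Fam84a and Tlcd2. Coasy, of coenzyme A synthesis, stood at 34.2, 19.2, 27.3, 0 and 32.8 CPM in the wild-type and 0, 28.2, 59.1 and 25.2 CPM in the Rel-null cultures, and Slc35c1, Zfyve26, Fam84a and Tlcd2 were likewise under 0.1 CPM in wild-type 4 and Rel-null 7 alone. The others varied among the remaining libraries as well. Angptl7, a secreted angiopoietin-like protein gene, stood at 295, 1.22, 196, 0 and 10.1 CPM in the wild-type and 42.9, 159, 48.8 and 0.242 CPM in the Rel-null cultures. Gpm6a, a membrane glycoprotein gene, stood at 41.6, 0.535, 27.3, 0 and 3.77 CPM in the wild-type and 0, 64.0, 28.2 and 1.65 CPM in the Rel-null cultures. Both were higher in wild-type 1 and 3 than in the other wild-type cultures, and Rel-null 8 and 9 were the highest of their group. The mesothelial marker Upk3b followed that order at 96.0, 1.61, 80.9, 0 and 11.5 CPM in the wild-type and 14.4, 123, 106 and 2.04 CPM in the Rel-null cultures. A second set was highest in wild-type 1 and 5 and Rel-null 10. Alpl, alkaline phosphatase, stood at 125, 17.8, 67.0, 0.0415 and 138 CPM in the wild-type and 0.0619, 10.7, 9.63 and 175 CPM in the Rel-null cultures. Chrdl2, a BMP inhibitor gene, stood at 123, 1.70, 35.5, 0.0415 and 133 CPM in the wild-type and 0.124, 2.01, 5.53 and 168 CPM in the Rel-null cultures. Gata5, a GATA-family transcription factor gene, stood at 124, 2.87, 29.4, 0.0415 and 66.7 CPM in the wild-type and 0, 38.4, 10.9 and 108 CPM in the Rel-null cultures. Some genes were at 0 counts in all 4 Rel-null libraries. Of these Rnf207, a ring finger protein gene, stood at 3.01, 5.45, 1.35, 3.41 and 0.881 CPM and Gls2, a glutaminase gene, at 3.59, 1.65, 0.953, 11.3 and 1.22 CPM in wild-type cultures, the latter with wild-type 4 far above the others. The edgeR adjusted p was 0.994 for each, and DESeq2 called both, with adjusted p = 0.00111 for Rnf207 and 0.000692 for Gls2.

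**Figure D5:**
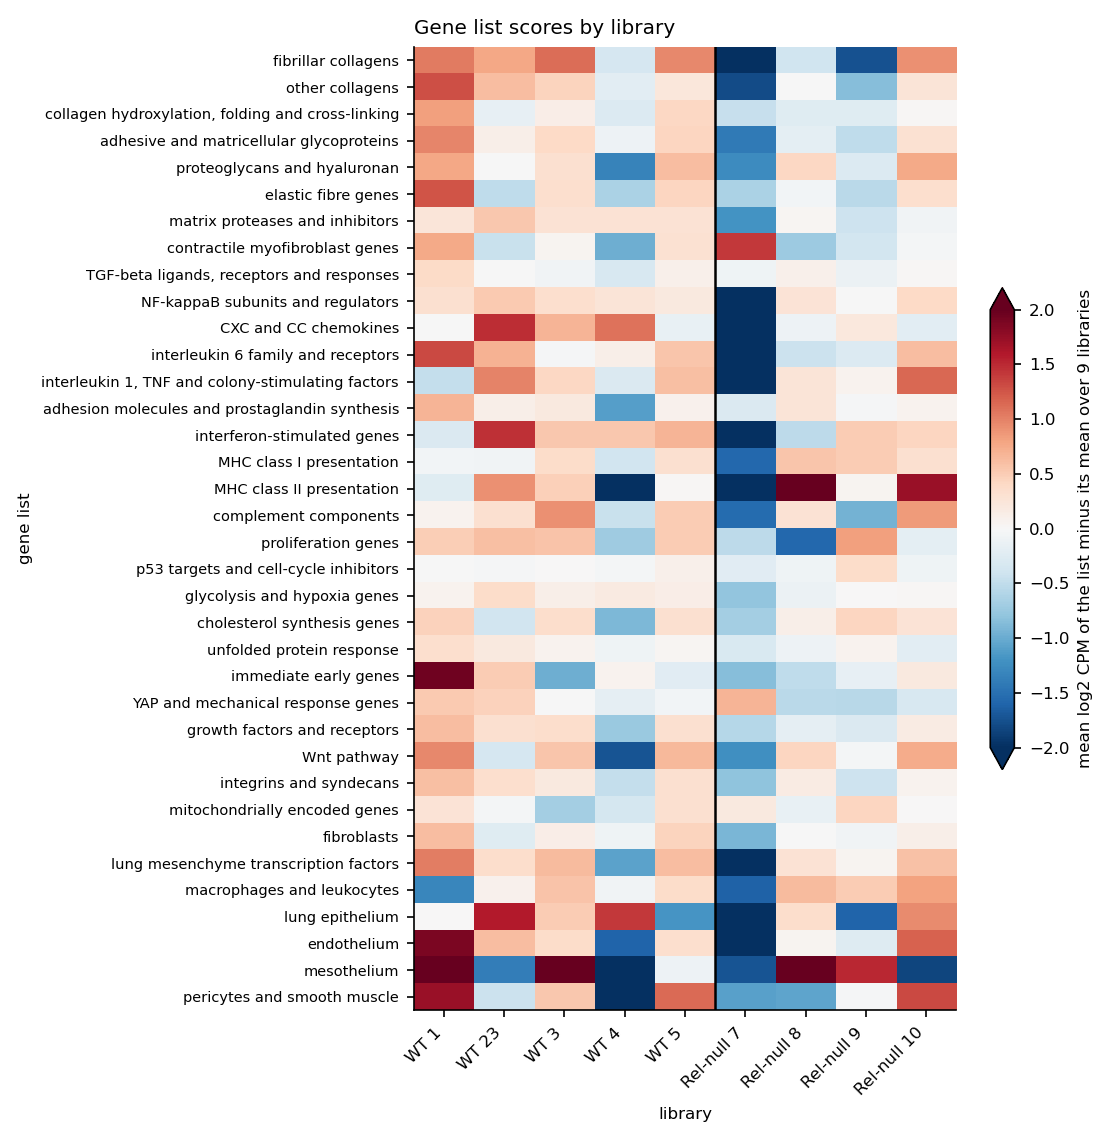
Mean log2 CPM of each gene list in each lung library, minus its mean over the 9 libraries; red is above and blue below that mean, the scale ends at 2 in each direction, and the vertical line separates wild-type from Rel-null libraries. Rel-null 7 is the lowest library for the NF-kappaB, chemokine and interleukin 6 lists and the highest for contractile genes, and mesothelial scores vary within both genotypes.

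Whether the effect of the Rel-null label differed between lung and the skin cultures of the same series was tested as an interaction over all 14 libraries, 9 of lung, 2 of wild-type skin and 3 of Rel-null skin. No gene passed (0 of 16408, 0%), with 766 at an unadjusted edgeR p under 0.05 (4.67%) and a smallest adjusted p of 0.101. The count depended on single skin libraries. It was 370 without wild-type skin 22, the shallowest library, which leaves 1 wild-type skin library assumed to vary like the other groups, and 31 without Rel-null skin 19 and 20, which read Rel at the wild-type level. It was 9 without Rel-null lung 7, 2 without wild-type skin 11 and 1 without Rel-null skin 20. Col11a1 had a log2 fold change of -0.42 in skin beside -1.52 in lung, Lif 1.35 beside -4.22, and Hebp1 1.78 beside 2.23. Of the 2 genes that passed in lung, Rps3a3 had 6.99 in skin beside 7.19 in lung, and Tpm3-rs7 -0.98 beside -5.17. None of these genes differed between tissues at an adjusted p under 0.05 (edgeR, 0.678 for Lif, 0.773 for Tpm3-rs7 and 0.9999 for the others).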

How the data were processed

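RNA was measured in 14 libraries, of which the 9 of lung fibroblasts are described. The deposited values are raw read counts per gene, in 48795 rows of whole numbers without normalization. Per the submitters' processing notes, FastQC 0.11.2, Trimmomatic 0.33, STAR 2.4.2a and build GRCm38 were used, and per the labels a directional library kit was used. The counting tool, its strand setting and its treatment of multiply mapped reads are not stated by the labels or the file header. Symbols and positions came from GENCODE M21 (GRCm38), which held 48435 of the gene identifiers, and 360 were not matched.

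Genes were kept by filterByExpr (minimum count 10, minimum total 15), scaled by TMM and tested with edgeR 4.0.16 (R 4.3.3) by the quasi-likelihood F test on the 9 lung libraries, with Benjamini-Hochberg adjustment over all genes tested and a threshold of 0.05. The SE is the log2 fold change divided by the square root of F. Skin libraries entered the interaction fit and 1 alternative, since 2 of the 3 Rel-null skin libraries read Rel at the wild-type level and a wild-type skin library was shallow. The test was run on simulated counts as a check of the code, and its power at the spread of these data is not reported. Rel was also tested by an exact permutation test of its CPM. Alternatives were DESeq2 1.42.0, limma 3.58.1 with voom quality weights, other scalings and filters, all 14 libraries in 1 fit, the macrophage score as a covariate, each library left out, and, chosen after seeing the data, the fit without wild-type 4 and Rel-null 7, a correction for exon length, and the interaction without single libraries and without Rel-null skin 19 and 20. Groups were called non-overlapping where every library of one lay above every library of the other.

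Genes named are Rel; the 12 higher and 12 lower protein-coding genes with the smallest p and a group mean of at least 5 CPM; in each list up to 4 members with an unadjusted p under 0.05 and the 2 most abundant; and the 10 protein-coding genes with the largest spread within groups. Not all of them are described. The members and the gene lists were chosen with earlier results of these data known. Promoters are 250 bases before each RefSeq gene start, with genes of chromosome 18 and the mitochondrion left out.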

Additional observations from a re-analysis of the deposited data

Results flagged for a closer look

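In 264 groups of values examined, 21 had a sample far from the others of its group, where the gap to the nearest value was an unusually large part of the range (Dixon's test at the 95% level). Chance alone flags about 1 in 20 groups. Rel-null 7 was the low sample in 11 of them and wild-type 4 in 6, the 2 libraries with the most gaps.

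In Rel-null 7 the flagged levels were Nfkbiz at 0 CPM, Lif at 0.681 CPM, Fbln2 at 808 CPM, Vegfa at 24.8 CPM, Ero1l at 54.3 CPM, Lyz2 at 5111 CPM, Gm6768 at 0 CPM and Gm6969 at 0.124 CPM. Its mean log2 CPM was also low for the NF-kappaB list at 2.13, the chemokine list at 0.79 and the MHC class I list at 4.85. In wild-type 4 the flagged levels were Hpgd at 0 CPM, Insig1 at 6.27 CPM and Gm6768 at 0 CPM, and its mean log2 CPM was low for fibrillar collagens at 6.50, proliferation genes at 2.89 and growth factors and receptors at 4.69. Wild-type 1 was low for Adgre1 at 50.2 CPM, a macrophage marker, and high for Pdgfra at 1494 CPM, a fibroblast receptor gene. Wild-type 5 was low for C1s1 at 231 CPM, and wild-type 23 was high for the matrix protease list, with a mean log2 CPM of 7.58.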

How the results depend on the processing

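The number of genes past the threshold, 2 in the comparison as reported, was 0 with all 14 libraries in 1 fit, 19 by DESeq2 and 4 without wild-type 4 and Rel-null 7, and it ran from 1 to 3 when each library was left out in turn, being 1 without wild-type 1, wild-type 23, wild-type 5 or Rel-null 8. The Rel difference ran from -9.87 to -6.16 CPM when each library was left out. The count of genes whose effect differed between lung and skin, 0 as reported, ran from 0 to 370 when each library was left out and was 31 without Rel-null skin 19 and 20. Median log2 fold changes that moved by more than the spread between libraries were those of the p53 list (-0.0927 by limma-voom, 0.63 with the exon-length correction, -0.0167 to 0.30 with each library left out), the TGF-beta list (0.28 with the exon-length correction, -0.11 to 0.19 with each library left out) and, with the exon-length correction, the glycolysis and hypoxia list (0.0287), the unfolded protein response list (0.00123) and the YAP list (0.46). The exon-length correction raised the median of all genes from -0.04 to 0.25, and values under it are to be read against 0.25: the glycolysis and unfolded protein response medians, Rela and Nfkb2 lay below the all-gene median with and without it. By limma-voom the median also changed sign for the contractile list (-0.51), the NF-kappaB list (0.0728), the cholesterol list (-0.0327), the TGF-beta list (0.0195) and the immediate early list (0.0717).

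The direction of 9 named genes turned under at least 1 alternative. By limma-voom the log2 fold change was 0.00379 for Nfkb2, 0.0755 for Nfkbia, 0.64 for Fosb, -0.60 for Actg2, -0.71 for Acta2, -1.05 for Ankrd1 and -0.31 for Ccn2. Without wild-type 4 and Rel-null 7 it was -0.34 for Actg2, -0.79 for Acta2, -1.68 for Ankrd1 and -0.97 for Ccn2. With the macrophage score as a covariate it was -1.12 for Ankrd1 and -0.34 for Ccn2, and with the exon-length correction 0.0660 for Rela and 0.0742 for Nfkb2. With each library left out it ran from -0.29 to 0.11 for Rela, -0.0389 to 0.41 for Relb, -0.0879 to 3.25 for Actg2, -0.60 to 1.49 for Acta2, -2.33 to 1.10 for Ankrd1 and -1.32 to 0.78 for Ccn2. The cause was not tested. No paired analysis was possible because the lung groups share no replicate number. In Rel-null 7 the level of Rel rests on 1 count of 15366332, with a 95% Poisson upper bound of 0.345 CPM. That library also had the most gaps, at 11.46% of expressed genes.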
